A study of Homo sapiens with 18 samples.

Results

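A set of 33 p53 pathway genes was selected by name: regulators of p53 and direct p53 targets, leaving out the BCL2 family and excision repair genes. Of these 33 genes, 32 were among the 23622 genes of the RNA-seq count table and all 32 passed the filter on low counts, which kept 15760 genes. PHLDA3 was not analysed here. RNA-seq was performed in A2780, a human ovarian cancer line that is sensitive to cisplatin and that the study describes as p53 proficient, and in Acis, the cisplatin-resistant line derived from it. Each line was either left untreated (A2780 control, Acis control) or treated with 200 µM cisplatin for 3 h (A2780 cisplatin, Acis cisplatin), with 3 libraries per group. Acis cells of both groups had also been given 1 µM cisplatin every 3 passages to keep them resistant, and each line stands for 1 culture history, so line and history cannot be told apart. Chromatin accessibility was available as 1 ATAC-seq peak list per group.

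p53 is a transcription factor that is held at low levels by the ubiquitin ligase MDM2 and its partner MDM4. DNA damage, such as the adducts and crosslinks made by cisplatin, activates kinases that release p53 from this control. p53 then binds its sites near target genes that arrest the cell cycle, promote apoptosis, adjust metabolism and, through MDM2 and the phosphatase PPM1D, shut p53 down again.

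Total counts per library were 4130644 to 5072216. The markers of Müllerian and ovarian epithelium that were listed for a check of the tissue (PAX8, WT1, MUC16, ESR1, SOX17) were not analysed here. Vimentin (VIM), a mesenchymal filament protein, was high in all groups (1783 to 2007 mean normalized counts), and the leukocyte marker CD14 was near 0 (0.355 to 2.87). Of the epithelial markers, EPCAM was near 0 (0.647 to 4.17) and KRT8 low (4.05 to 17.2), while KRT18 had 25.5 and 35.3 in untreated and treated A2780 and 143 and 146 in untreated and treated Acis. Of the fibroblast markers, COL1A2 (787 against 0 mean normalized counts in A2780 control and Acis control), COL1A1 (844 against 16.4) and DCN (46.2 against 3.65) were lower in Acis control, and COL3A1 was higher (1802 against 3944). The part of these differences in the results was not tested. The 3 libraries of a group came from separate wells per the methods, with no word on separate cultures, so p-values measure the spread between wells.

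Where p53 could bind accessible chromatin at these genes was described first. In the 500 bp around the summit of each merged ATAC-seq peak, the p53 consensus (a pair of adjacent half-sites, palindromic, so that both strands are read at once) was searched with at most 2 mismatches and with the C and G of each core kept. It was found in 0.792% of all 45685 peak regions. Of the 60 peak regions that lay in a member gene or up to 5 kb upstream of its start, 6 held a match (10%), each at a different gene. These 6 sequences are shown because they are the only accessible sites of this kind at the 32 genes under these settings. They are written 5′ to 3′ on the plus strand of GRCh38, with 20 bases on each side and the match in capitals.
CDKN1A, chr6:36676429-36676488: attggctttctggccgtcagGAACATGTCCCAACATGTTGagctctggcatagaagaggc
MDM2, chr12:68808903-68808962: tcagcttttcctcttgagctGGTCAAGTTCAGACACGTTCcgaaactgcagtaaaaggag
AEN, chr15:88621286-88621345: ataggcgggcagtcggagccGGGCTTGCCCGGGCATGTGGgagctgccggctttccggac
SPATA18, chr4:52051937-52051996: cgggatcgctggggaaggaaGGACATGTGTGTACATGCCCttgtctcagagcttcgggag
CMBL, chr5:10307564-10307623: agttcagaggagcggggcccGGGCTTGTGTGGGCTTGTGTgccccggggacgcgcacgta
FBXW7, chr4:152352600-152352659: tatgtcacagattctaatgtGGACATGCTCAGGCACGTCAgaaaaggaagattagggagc

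In GENCODE 44 the MDM2 match lay in an intron, 755 bp downstream of the start of the canonical transcript, and the SPATA18 match lay in an intron 662 bp downstream. The AEN match was 25 bp upstream of the start, in the sequence just before the gene. It was also the single match among the 26 members with a RefSeq promoter (250 bases before to 50 after the start), against 0.271% of all 27305 promoters. CMBL and FBXW7 held theirs 309 bp and 183463 bp downstream of the canonical start, outside the exons of the canonical transcript but inside an exon of another transcript. The CDKN1A match was 2256 bp upstream of the canonical start, where 9 of its 20 bases overlapped the first exon of a longer transcript.

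The CDKN1A element was the one of the 6 whose peak was not listed in every condition. Its peak had a fold enrichment over local background of 5.16 in A2780 control and 3.12 in A2780 cisplatin, and no peak was listed there in Acis control or Acis cisplatin. The MDM2 peak was listed in all 4 conditions, with 9.73 and 9.85 in untreated and treated A2780 and 11.9 and 11.2 in untreated and treated Acis. AEN, SPATA18, CMBL and FBXW7 had their peak in all 4 lists as well. The other 26 members had no match in these windows, which says only that these letters were not found there.

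After 3 h of cisplatin the 32 genes did not move as a block in A2780 cells. Cell cycle arrest genes rose most: PLK3 and PLK2, kinases of the polo-like family, 3.75-fold and 3.69-fold, GDF15, a secreted stress cytokine, 2.63-fold, and BTG2, an antiproliferative transcription cofactor, 2.59-fold. CDKN1A, the cyclin-dependent kinase inhibitor p21, rose 1.80-fold. The genes that feed back on p53 were lower or without a detected change: MDM2 fell to 0.859 and MDM4 to 0.823 of control. In all, 14 of 32 members were higher and 7 were lower (edgeR quasi-likelihood test, adjusted p under 0.05), against 21.2% of all 15760 genes called higher and 28.2% called lower. With a log2 fold change of at least 1 as well, 4 members were higher, against 4.14% of all genes. The median log2 fold change of the members was -0.02, and that of all genes was -0.01. When libraries were scaled by total counts instead of TMM, the median of all genes moved to 0.10, with 33.6% of genes higher and 19.4% lower, and the members' split was 16 higher and 6 lower.

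In Acis cells the same exposure raised more members than it lowered. BTG2 (2.25-fold), PLK3 (2.51-fold), GDF15 (1.96-fold) and CDKN1A (1.77-fold) rose again, and MDM2 was slightly higher instead of lower. Of 32 members, 16 were higher and 3 were lower in the same test, against 9.35% and 12.4% of all genes. Past a log2 fold change of 1 there were 2, BTG2 and PLK3, against 1.64% of all genes called higher. The median over members was 0.17 and over all genes 0.01. TP53INP1, which had no count in any Acis library, counts among the members without a call here.

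**Figure D1:**
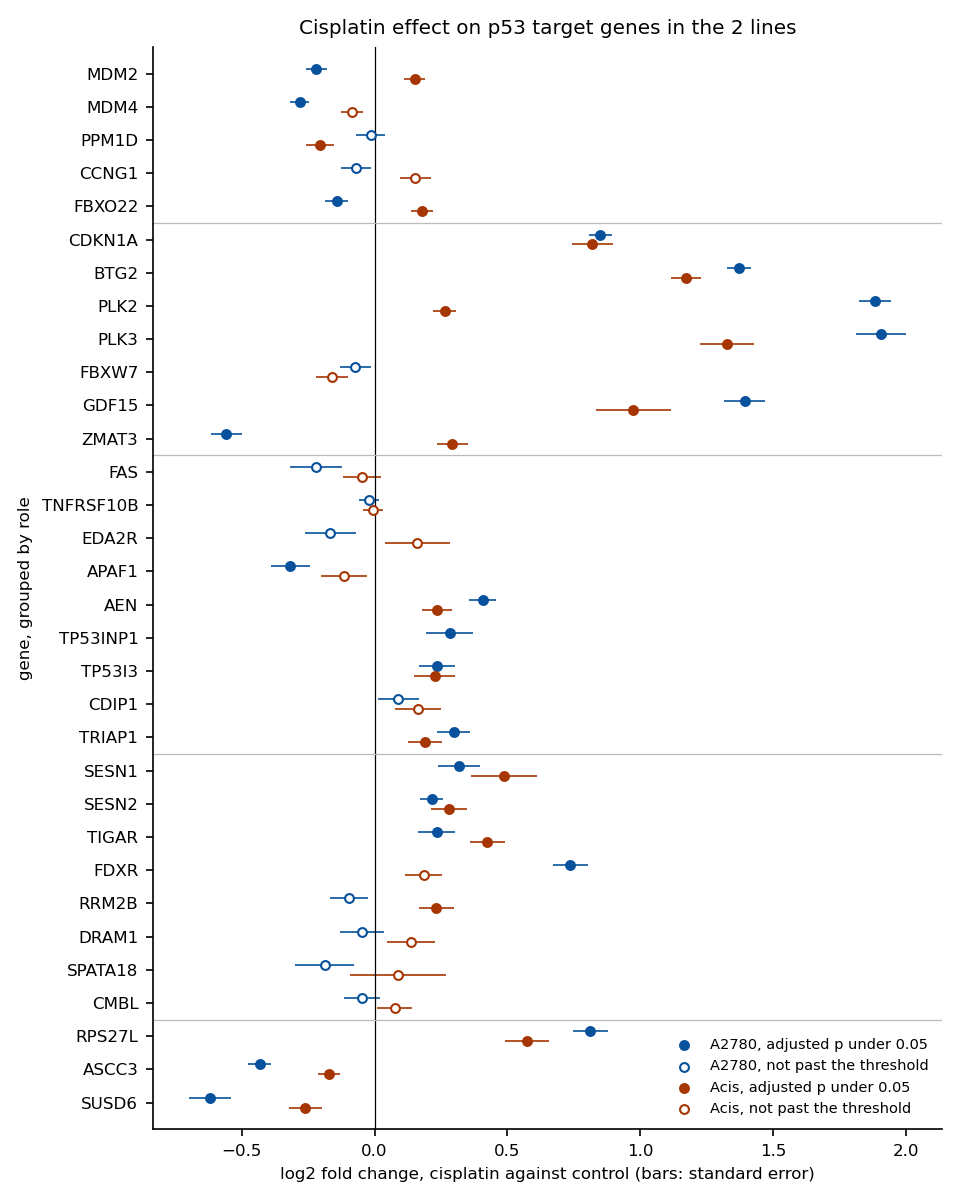
Log2 fold change of cisplatin against control for each member in A2780 (blue) and Acis (brown), grouped by role, with lines for the standard error, filled points for adjusted p under 0.05 and open points otherwise. PLK2 shows the widest gap between the lines (1.88 against 0.26), and MDM2, FBXO22 and ZMAT3 have filled points on opposite sides of 0 in the lines.

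Among the 5 genes that feed back on p53, 3 were lower in A2780 cells after cisplatin (MDM2, MDM4 and FBXO22), while in Acis cells 2 were higher (MDM2 and FBXO22) and 1 was lower (PPM1D). Of all genes, 28.2% were called lower in A2780, and in Acis 9.35% were called higher and 12.4% lower. MDM2, the ubiquitin ligase that marks p53 for destruction and itself a p53 target, had 1104, 1143 and 1146 normalized counts in the A2780 control libraries and 955, 966 and 993 in the cisplatin libraries. The groups did not overlap, and the log2 fold change was -0.22 ± 0.04 (SE, adjusted p = 4.4e-05 in edgeR). Groups without overlap, here and below, were common. Over all tested genes, 26.2% had all treated libraries above and 31.1% below the untreated ones in A2780. In Acis these shares were 16.9% and 17.4%. In Acis the MDM2 values were 1024, 1109 and 1122 without and 1208, 1247 and 1155 with cisplatin. All 3 treated libraries were above the untreated ones, by 0.15 ± 0.04 on the log2 scale (adjusted p = 0.0056), a call that was lost without Acis control replicate 1 (0.11, adjusted p = 0.0597) and with DESeq2 (0.12, adjusted p = 0.111). Both effects were small, but the difference between them was 0.37 ± 0.06 (adjusted p = 3.2e-05 for the interaction). The annotation places 2 other genes on the same strand inside MDM2's span and 2 on the opposite strand. Reads shared with the same-strand genes could not be assigned.

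MDM4, which inhibits p53 by binding its activation domain, had 1399, 1387 and 1347 normalized counts in A2780 control and 1148, 1149 and 1106 in A2780 cisplatin. That is a log2 fold change of -0.28 ± 0.04 (edgeR, adjusted p = 2.8e-07), with no overlap. In Acis control the values were 946, 1013 and 1027, and in Acis cisplatin 900, 965 and 948, where the groups overlapped and the test was not passed (-0.09 ± 0.04, adjusted p = 0.14, passed without Acis control replicate 1 at -0.12, adjusted p = 0.0416). MDM4 was already lower in untreated Acis than in untreated A2780 (-0.47 ± 0.04, adjusted p = 1.6e-11). PPM1D, the phosphatase WIP1 that removes activating phosphates from p53 and its kinases, had 398, 372 and 371 in A2780 control and 380, 373 and 379 in A2780 cisplatin. These groups overlapped (-0.01 ± 0.05). In Acis its values went from 453, 456 and 489 to 390, 418 and 403, without overlap, and it was lower (-0.21 ± 0.05, adjusted p = 0.0045), although the effects in the lines were not shown to differ (interaction adjusted p = 0.088).

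FBXO22, an F-box protein of a ubiquitin ligase that acts on p53, had 798, 779 and 778 normalized counts in A2780 control and 685, 716 and 734 in A2780 cisplatin (-0.14 ± 0.04, adjusted p = 0.0072 in edgeR). This fall was not called with total-count scaling or when genes with a mean under 50 counts were removed (adjusted p up to 0.638). In Acis its counts were 715, 792 and 781 without and 849, 876 and 862 with cisplatin (0.18 ± 0.04, adjusted p = 0.0028, not called by DESeq2 at 0.0768). The treated libraries of the 2 lines stood on opposite sides of their controls, with an interaction of 0.32 ± 0.06 (adjusted p = 0.00042). CCNG1, cyclin G1, which recruits a phosphatase to MDM2, did not pass in either line (-0.07 ± 0.06 in A2780 and 0.15 ± 0.06 in Acis). The Acis value passed without A2780 cisplatin replicate 1, Acis control replicate 2 or Acis cisplatin replicate 3 (0.15 to 0.22, adjusted p of 0.0111 to 0.0366). The interaction of CCNG1 (0.22, adjusted p = 0.053) passed without A2780 cisplatin replicate 2 or 3, Acis control replicate 2 or Acis cisplatin replicate 3, with values of 0.25 to 0.29.

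**Figure D2:**
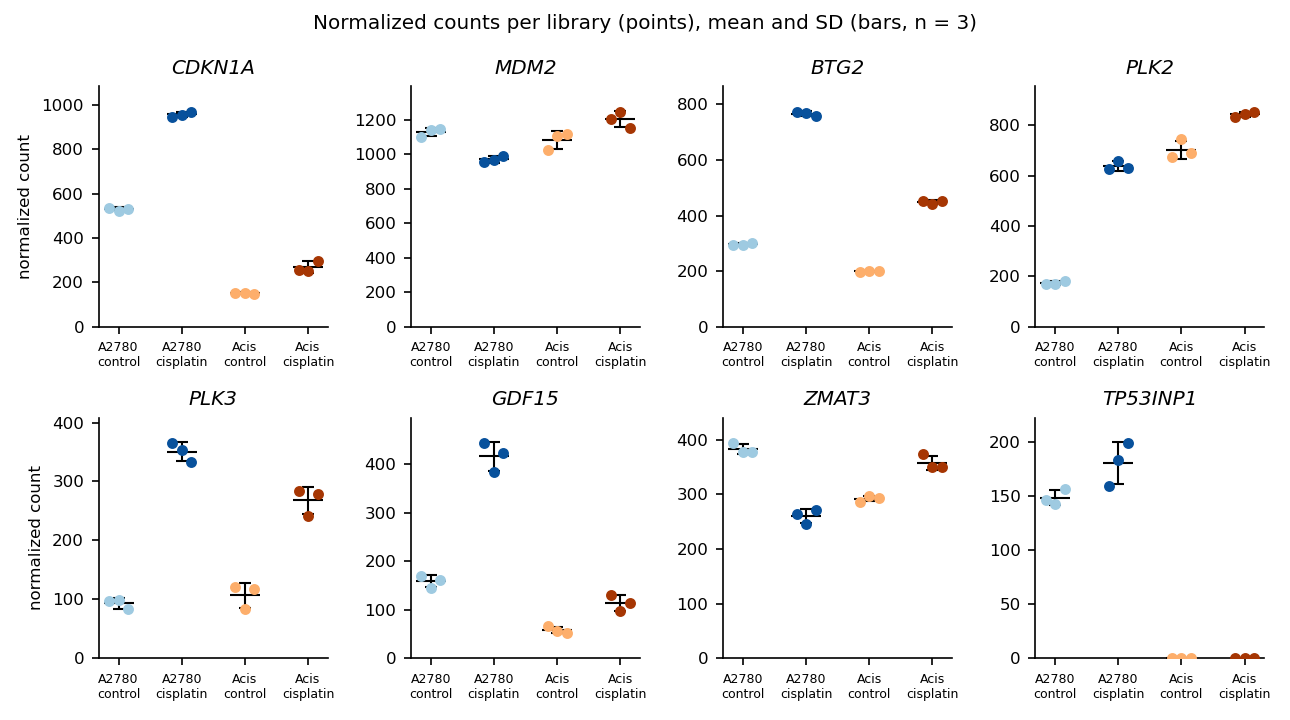
Normalized counts (linear axis from 0) of 8 members in each of the 12 libraries, with a point per library and black bars for the group mean and SD (n = 3). CDKN1A, BTG2 and GDF15 step up with cisplatin in both lines from a lower level in Acis, PLK2 starts high in Acis, and TP53INP1 has no count in any Acis library.

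Of the 7 genes of cell cycle and growth arrest, 5 rose and 1 fell in A2780, and 6 rose in Acis, against 21.2%, 28.2% and 9.35% of all genes. CDKN1A had 537, 524 and 533 normalized counts in A2780 control and 947, 956 and 970 in A2780 cisplatin. Its Acis values were 153, 154 and 149 without and 255, 253 and 299 with cisplatin. The treated Acis libraries therefore stayed below even the untreated A2780 libraries. The fold changes were almost equal, 0.85 ± 0.04 in A2780 (edgeR adjusted p = 1.3e-14) and 0.82 ± 0.08 in Acis (adjusted p = 9.6e-09), and their difference was -0.03 ± 0.09. BTG2 also rose in both lines, with 295, 292 and 301 rising to 773, 768 and 756 in A2780 (1.37 ± 0.05, adjusted p = 2.1e-18). In Acis BTG2 rose from 196, 201 and 199 to 451, 441 and 454 (1.17 ± 0.06, adjusted p = 1.1e-13), where the treated libraries were above those of A2780 control. GDF15 rose from 170, 145 and 161 to 444, 384 and 423 in A2780 (1.39 ± 0.08, adjusted p = 7.1e-14), and from 65.8, 56.4 and 52.4 to 131, 97.5 and 115 in Acis (0.97 ± 0.14, adjusted p = 7.3e-06). The GDF15 effects were not shown to differ between the lines (-0.42 ± 0.17, adjusted p = 0.083), but the difference passed without A2780 cisplatin replicate 2 or Acis cisplatin replicate 1 (-0.53 to -0.47, adjusted p of 0.037 to 0.0415). All treated libraries of CDKN1A, BTG2 and GDF15 were above all untreated libraries of the same line, as for 26.2% of all genes in A2780 and 16.9% in Acis.

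PLK2 and PLK3, stress-responsive kinases that restrain cell cycle progression, were separated by their state in untreated Acis. PLK2 had 169, 168 and 181 normalized counts in A2780 control and 625, 659 and 629 in A2780 cisplatin, a log2 fold change of 1.88 ± 0.06 (edgeR, adjusted p = 1.1e-18). In Acis control it already stood at 674, 743 and 688, above every treated A2780 library, and cisplatin took it to 833, 844 and 853 (0.26 ± 0.04, adjusted p = 3.4e-05). The 2 effects differed by -1.62 ± 0.08 (interaction adjusted p = 3.1e-14). PLK3 had 97.0, 99.0 and 83.3 in A2780 control against 365, 353 and 333 with cisplatin (1.91 ± 0.09, adjusted p = 9.0e-15). In Acis, 121, 83.1 and 117 became 283, 242 and 279 (1.33 ± 0.10, adjusted p = 2.1e-10). PLK3 therefore started from overlapping levels in the lines and rose less in Acis, with an interaction of -0.58 ± 0.15 (adjusted p = 0.007).

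ZMAT3, a zinc finger protein that binds RNA and restrains growth, was the member of this group that fell in A2780. Its normalized counts went from 394, 378 and 378 to 264, 246 and 271 (-0.56 ± 0.06, adjusted p = 6.8e-09 in edgeR). In Acis they went the other way, from 287, 297 and 294 to 373, 350 and 351 (0.29 ± 0.06, adjusted p = 0.00045). The groups did not overlap in either line, and the interaction was 0.85 ± 0.08 (adjusted p = 8.1e-08). FBXW7, a substrate receptor that sends cyclin E and MYC to degradation, did not pass in either line. Its 95% intervals were -0.21 to 0.06 in A2780 and -0.30 to -0.02 in Acis before adjustment over all genes (adjusted p = 0.32 and 0.059), and the Acis value passed without A2780 cisplatin replicate 2 or Acis cisplatin replicate 2 (adjusted p of 0.0197 to 0.0495).

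Members of the death receptor and apoptosis group changed little. Of the 9 tested, 4 rose and 1 fell in A2780, against 21.2% and 28.2% of all genes, and 3 rose in Acis, against 9.35%. AEN, a nuclease that digests DNA during apoptosis and whose promoter holds the match printed above, rose by 0.41 ± 0.05 in A2780 (edgeR, adjusted p = 3.0e-07) and 0.24 ± 0.06 in Acis (adjusted p = 0.0024). TRIAP1, a small inhibitor of apoptosis at mitochondria, rose by 0.30 ± 0.06 in A2780 (adjusted p = 0.00028). Its 0.19 ± 0.06 in Acis (adjusted p = 0.048) was lost without any 1 of the 9 libraries outside A2780 cisplatin, with adjusted p of 0.0549 to 0.15. The call was also lost without the filter on low counts, with DESeq2 or its size factors, and with the closest replicates merged. TP53I3, an oxidoreductase linked to reactive oxygen, rose by 0.24 ± 0.07 in A2780 (adjusted p = 0.0046, not called by DESeq2 at 0.0665). In Acis its 0.23 ± 0.08 (adjusted p = 0.034) was lost without Acis control replicate 2 or 3 or Acis cisplatin replicate 2 or 3, with adjusted p of 0.0732 to 0.194. The same further alternatives as for TRIAP1 also lost this call. APAF1, the scaffold of the apoptosome, fell by 0.32 on the log2 scale in A2780 (adjusted p = 0.00068).

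The death receptors themselves did not pass in either cisplatin comparison. FAS, the receptor for FAS ligand, was -0.22 ± 0.10 in A2780 (edgeR, adjusted p = 0.063, passing without Acis control replicate 1, Acis cisplatin replicate 1 or Acis cisplatin replicate 2 at 0.0459 to 0.0482) and -0.05 ± 0.07 in Acis. TNFRSF10B, the TRAIL receptor DR5, was -0.02 ± 0.04 and -0.01 ± 0.04, with normalized counts of 916 to 1030 over all 12 libraries. The 95% interval of its effect was -0.11 to 0.06 in A2780 and -0.09 to 0.08 in Acis. With total-count scaling the A2780 value of TNFRSF10B turned to 0.09 (adjusted p = 0.0322). EDA2R, a receptor for an ectodysplasin ligand, and CDIP1, a p53-induced cell death protein, also did not pass in either line (-0.17 ± 0.10 and 0.16 ± 0.12 for EDA2R, 0.09 ± 0.08 and 0.16 ± 0.09 for CDIP1).

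TP53INP1, a cofactor of p53 in stress-induced death, was the member with an absence in Acis. It had 146, 142 and 156 normalized counts in A2780 control and 159, 183 and 198 in A2780 cisplatin, while all 6 Acis libraries had 0 counts. Against a floor of 3 counts over the 3 libraries of a group, its level in Acis was at least 136-fold lower without and at least 185-fold lower with cisplatin. These bounds cover counting error only. Its rise in A2780, 0.28 ± 0.09 (edgeR, adjusted p = 0.011), was lost without A2780 control replicate 2 (0.25, adjusted p = 0.0512), without A2780 cisplatin replicate 3 (0.21, adjusted p = 0.0854) and with DESeq2 (adjusted p = 0.184). Merging the closest replicates lost it too. The start of TP53INP1 had an ATAC-seq peak in A2780 control (fold enrichment 5.42) and A2780 cisplatin (7.61), and no peak was listed there in either Acis condition.

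Of the 8 genes of stress metabolism, redox and autophagy, 4 rose in A2780 (FDXR, SESN1, SESN2 and TIGAR) and 4 rose in Acis (SESN1, SESN2, TIGAR and RRM2B). Of all genes, 21.2% were called higher in A2780 and 9.35% in Acis. The sestrins SESN1 and SESN2 restrain mTORC1 signalling under stress. SESN1 had 151, 161 and 158 normalized counts in A2780 control and 171, 201 and 214 in A2780 cisplatin, and SESN2 went from 735, 698 and 717 to 851, 810 and 836. The rises in A2780 were 0.32 ± 0.08 (edgeR adjusted p = 0.0018, not called by DESeq2 at 0.0598) and 0.22 ± 0.04 (adjusted p = 0.00014). In Acis, SESN1 went from 63.7, 66.0 and 67.2 to 95.0, 92.5 and 88.4 (0.49 ± 0.12, adjusted p = 0.0047). SESN2 went from 283, 265 and 238 to 304, 324 and 329 (0.28 ± 0.07, adjusted p = 0.0029). For both sestrins every treated library was above every untreated library of its line, and every Acis library was below every A2780 library.

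TIGAR, a phosphatase that slows glycolysis, had 291, 331 and 334 normalized counts in A2780 control and 376, 387 and 358 with cisplatin (0.23 ± 0.07, edgeR adjusted p = 0.0072). That call was lost without A2780 control replicate 1 (0.16, adjusted p = 0.0865). In Acis TIGAR went from 333, 386 and 389 to 526, 504 and 454 (0.42 ± 0.07, adjusted p = 1.9e-05), without overlap. FDXR, the ferredoxin reductase of mitochondria, rose in A2780 from 271, 258 and 245 to 450, 436 and 406 (0.74 ± 0.07, adjusted p = 5.5e-10). In Acis it had 314, 291 and 264 without and 318, 316 and 357 with cisplatin. This did not pass (0.18 ± 0.07, adjusted p = 0.06) except without Acis control replicate 1 (0.25, adjusted p = 0.022), and the effects of the lines differed by -0.55 ± 0.10 (adjusted p = 0.0002).

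RRM2B, the p53-inducible subunit of ribonucleotide reductase, was -0.10 ± 0.07 in A2780 and rose by 0.23 ± 0.07 in Acis (edgeR, adjusted p = 0.012). The Acis call was lost without Acis control replicate 1, Acis cisplatin replicate 1 or Acis cisplatin replicate 2 (0.16 to 0.21, adjusted p of 0.0564 to 0.111) and with DESeq2 (adjusted p = 0.121). Merging the closest replicates also lost it. DRAM1, a lysosomal protein of autophagy, SPATA18, which acts in mitochondrial quality control, and CMBL, a hydrolase, did not pass in either line. Their values lay between -0.19 and -0.05 in A2780 and between 0.08 and 0.14 in Acis.

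The remaining members split. RPS27L, a ribosomal protein paralogue that interacts with MDM2, rose from 214, 235 and 228 to 417, 385 and 384 normalized counts in A2780 (0.81 ± 0.06, edgeR adjusted p = 5.7e-11). In Acis it rose from 150, 160 and 160 to 255, 228 and 213 (0.57 ± 0.08, adjusted p = 7.5e-06). ASCC3, a helicase subunit of a complex that acts in alkylation repair and on stalled ribosomes, fell from 1420, 1393 and 1431 to 986, 1109 and 1051 in A2780 (-0.43 ± 0.04, adjusted p = 6.4e-09). The fall in Acis, from 1409, 1577 and 1571 to 1333, 1408 and 1302, was smaller (-0.17 ± 0.04, adjusted p = 0.0038). SUSD6, a membrane protein, fell by 0.62 on the log2 scale in A2780 (adjusted p = 2.6e-07) and by 0.26 in Acis (adjusted p = 0.0041). ASCC3 and SUSD6 are both long genes.

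**Figure D3:**
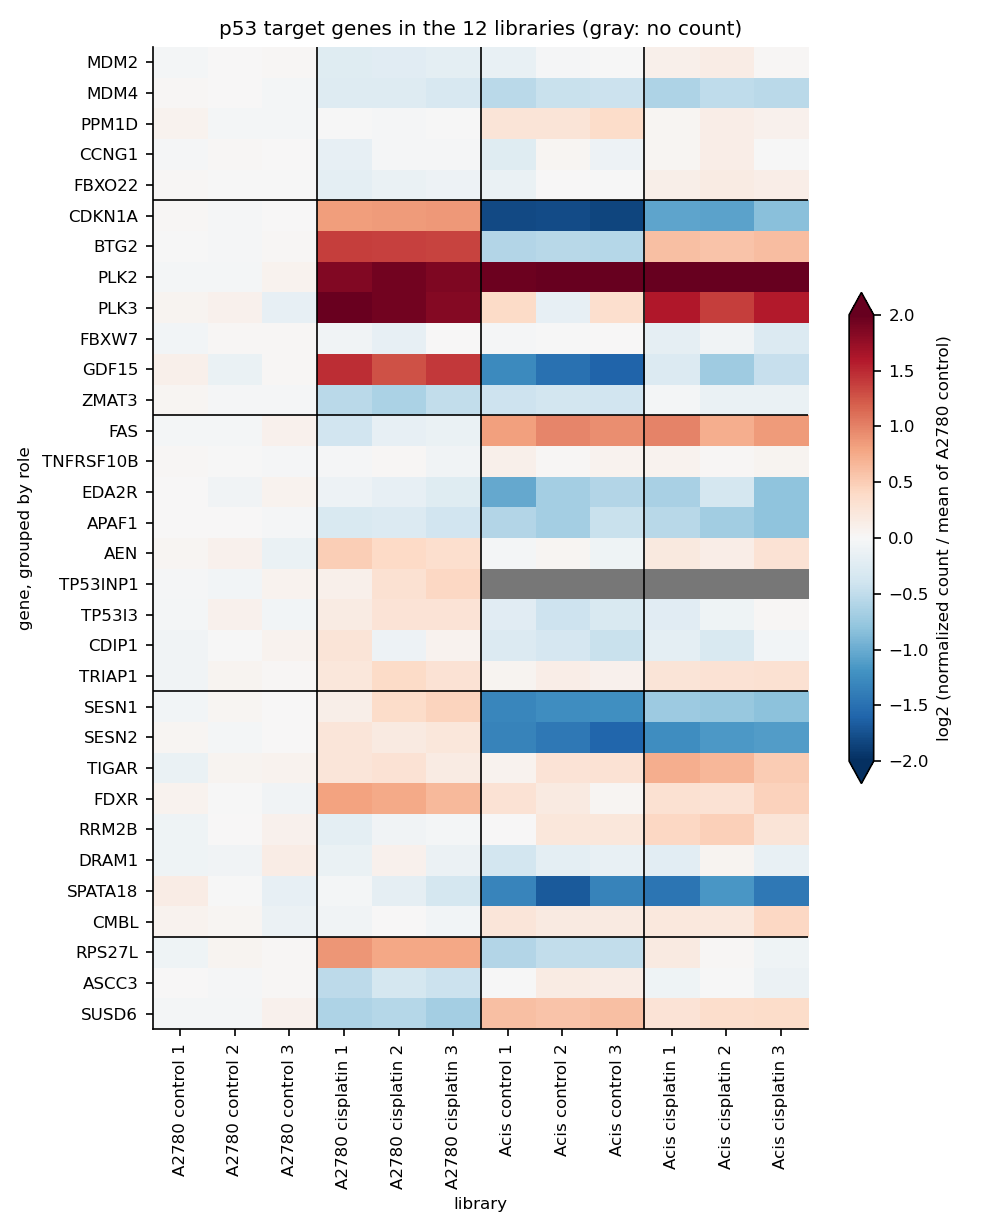
Normalized counts of the 32 members in the 12 libraries, as log2 relative to each gene's mean over A2780 control, with genes grouped by role, the color scale capped at its ends and gray for no count. Libraries of a group look alike, and the columns of the Acis line are separated from those of A2780 at CDKN1A, GDF15, SESN1, SESN2, SPATA18, TP53INP1 and FAS. At PLK2 the columns of A2780 control stand apart from all others.

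Untreated Acis cells expressed many of these genes at a lower level than untreated A2780 cells. CDKN1A stood at 0.287, SESN2 at 0.367, GDF15 at 0.368, SPATA18 at 0.368 and SESN1 at 0.420 of the A2780 control level, whereas PLK2 was 4.07-fold and FAS 1.88-fold higher. In all, 15 of 32 members were lower and 7 higher in Acis control (edgeR, adjusted p under 0.05), against 30.6% and 28.2% of all genes. Past a log2 fold change of 1, 6 members were lower (CDKN1A, SESN1, SESN2, GDF15, SPATA18 and TP53INP1) and 1 was higher (PLK2), against 12.2% and 6.99% of all genes. The median over members was -0.08 and over all genes -0.01. DESeq2 called 4 members higher instead of 7.

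The differences in CDKN1A (-1.80 ± 0.07, edgeR adjusted p = 5.6e-19), SESN2 (-1.45 ± 0.06, adjusted p = 1.9e-18) and PLK2 (2.02 ± 0.06, adjusted p = 3.1e-21) were the best supported, beside TP53INP1 above. GDF15 differed by -1.44 ± 0.13 (adjusted p = 1.7e-10) and SPATA18 by -1.44 ± 0.14 (adjusted p = 1.4e-09). SESN1 differed by -1.25 ± 0.11 (adjusted p = 9.6e-11). Moderate falls were seen in EDA2R (-0.75 ± 0.11), BTG2 (-0.57 ± 0.06), APAF1 (-0.57 ± 0.08), RPS27L (-0.53 ± 0.08), ZMAT3 (-0.39 ± 0.06), CDIP1 (-0.35 ± 0.08) and TP53I3 (-0.32 ± 0.08), beside MDM4.

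Higher in Acis control were FAS (0.91 ± 0.08, adjusted p = 2.3e-10 in edgeR), SUSD6 (0.59 ± 0.07, adjusted p = 1.0e-08) and PPM1D (0.29 ± 0.05, adjusted p = 3.2e-05), beside PLK2. FAS shares its strand with 2 overlapping genes, STAMBPL1 among them. The smallest calls did not hold throughout. TIGAR (0.21) was lost without A2780 control replicate 1, Acis control replicate 2 or Acis control replicate 3 (0.14 to 0.17, adjusted p of 0.0875 to 0.149). CMBL (0.20) and DRAM1 (-0.23) were lost without A2780 control replicate 3 or Acis control replicate 1 (adjusted p of 0.0704 to 0.13 and 0.11 to 0.144). ASCC3 (0.10) was lost without any of the A2780 control libraries or without Acis control replicate 2 or 3 (adjusted p of 0.1 to 0.277). DESeq2 lost the calls of TIGAR, CMBL, DRAM1 and ASCC3, and merging the closest replicates lost those of TIGAR and ASCC3. Without the filter on low counts, ASCC3 was lost as well. PLK3 (0.19, adjusted p = 0.21) passed without Acis control replicate 2 (0.34, adjusted p = 0.0236).

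MDM2 (-0.06 ± 0.04, adjusted p = 0.2 in edgeR) and TNFRSF10B (0.06 ± 0.04) did not pass between the untreated lines, with 95% intervals for TNFRSF10B of -0.03 to 0.15. Levels of different genes were set side by side roughly, as normalized counts per kb of the annotated exons of all transcripts. On this scale SESN2 (207), CCNG1 (194), TNFRSF10B (192) and CDKN1A (177) led in A2780 control. In Acis control, TNFRSF10B (200) and CCNG1 (182) led, and CDKN1A was at 50.8 and SESN2 at 75.8. FAS was the lowest of the 32 on this scale in A2780 control, at 5.09 per kb, but it was divided by 29313 bp of annotated exons. In normalized counts FAS (145, 145 and 158) was above SPATA18 (105, 95.2 and 85.4) in A2780 control.

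Under cisplatin the lines were compared directly as well. In Acis cisplatin 16 of 32 members were lower and 10 higher than in A2780 cisplatin (edgeR, adjusted p under 0.05), against 31.2% and 31.8% of all genes. CDKN1A was at 0.281 and GDF15 at 0.275 of the A2780 cisplatin level. MDM2, without a called difference before treatment, was 1.24-fold higher in Acis (0.31 ± 0.04, adjusted p = 9.7e-08), and the 3 Acis libraries (1155 to 1247) were all above the A2780 ones (955 to 993). The same separation was seen for 33.4% of all genes. For ZMAT3 the order of the lines turned over, from 0.763 of the A2780 level without to 1.38-fold of it with cisplatin. PLK2, 4.07-fold higher in Acis before treatment, was 1.32-fold higher after it. CDIP1 was lower (-0.27), a call lost without A2780 cisplatin replicate 1 (-0.17, adjusted p = 0.0623).

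Whether the same dose of cisplatin acted differently in the lines was tested by the interaction, the effect in Acis minus the effect in A2780. The dose was equal, but the damage was not, per the paper. It passed for 10 of 32 members in edgeR, 7 with a higher value in Acis (ZMAT3, MDM2, FBXO22, ASCC3, RRM2B, SUSD6 and MDM4) and 3 with a lower value (PLK2, FDXR and PLK3), against 13.4% and 5.48% of all genes. This split depended on scaling: with total counts it was 4 and 8, with a filter on genes under a mean of 50 counts the lower number was 8, and DESeq2 found 4 with a higher value. PLK2, ZMAT3, MDM2, FDXR, FBXO22, ASCC3 and PLK3 kept their call under every alternative tried. MDM4 (0.20) was lost with total counts, DESeq2 or merged replicates (adjusted p of 0.0673 to 0.0921). RRM2B (0.33) was lost without A2780 control replicate 3, A2780 cisplatin replicate 1, Acis control replicate 1 or Acis cisplatin replicate 2 (0.26 to 0.29, adjusted p of 0.0532 to 0.0636), and with total counts or DESeq2 (adjusted p up to 0.0941). SUSD6 (0.36) was lost without A2780 control replicate 3 or A2780 cisplatin replicate 3 (0.32 to 0.34, adjusted p of 0.0552 to 0.0695), and with total counts, DESeq2 or merged replicates (adjusted p up to 0.149).

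In bulk RNA, a change in synthesis and a change in decay cannot be told apart, and neither can fewer cells expressing a gene and less RNA per cell. One property that moved with the cisplatin effect was gene length. The members that rose most in A2780 were short: BTG2 spans 4.11 kb, PLK3 5.61 kb, PLK2 6.16 kb, CDKN1A 10.9 kb and GDF15 14.4 kb. Those that fell were longer: MDM2 37.4 kb, MDM4 41.7 kb, SUSD6 103.5 kb, ZMAT3 112 kb and ASCC3 373 kb. RPS27L, which rose almost as much as CDKN1A (0.81 against 0.85), spans 32.15 kb. Lengths run over all annotated transcripts of a gene, so its canonical transcript can be shorter. Across the 32 genes, Pearson's r of the log2 fold change with log10 length was -0.686 and Spearman's rho -0.705 in A2780, and -0.568 and -0.565 in Acis. Over 15708 genes with a length the values were -0.382 and -0.545 in A2780 and -0.201 and -0.355 in Acis. These are descriptions across genes, which share libraries and are not independent replicates.

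Set against all genes of like length, the members looked different from the unadjusted picture. Among genes of 30 to 100 kb, the A2780 median was -0.15 over 4385 genes and -0.14 over the 13 members. MDM2 (-0.22) and MDM4 (-0.28) lay at the 38.3 and 29.4 percentile of this class, and RPS27L (0.81) at the 98.1 percentile. Among genes of 100 to 300 kb, the median was -0.39 over 2107 genes and -0.07 over the 5 members. In this class SESN1 (0.32) lay at the 96.3 percentile and ZMAT3 (-0.56) at the 25.3 percentile. Among genes under 10 kb, the median was 0.21 over all and 0.83 over the 6 members, which were split. PLK2, PLK3 and BTG2 lay at the 97.8, 97.8 and 94.9 percentile, and TRIAP1, TP53I3 and CCNG1 at the 61.1, 54.2 and 19.3 percentile.

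In Acis the same classes gave a median of -0.02 over all genes of 30 to 100 kb and 0.09 over the 13 members, with MDM2 at the 82.0 percentile. At 100 to 300 kb the median was -0.17 over all and 0.14 over the 5 members, with ZMAT3 at the 93.5 and SESN1 at the 95.9 percentile. The part of length in these effects was not tested.

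**Figure D4:**
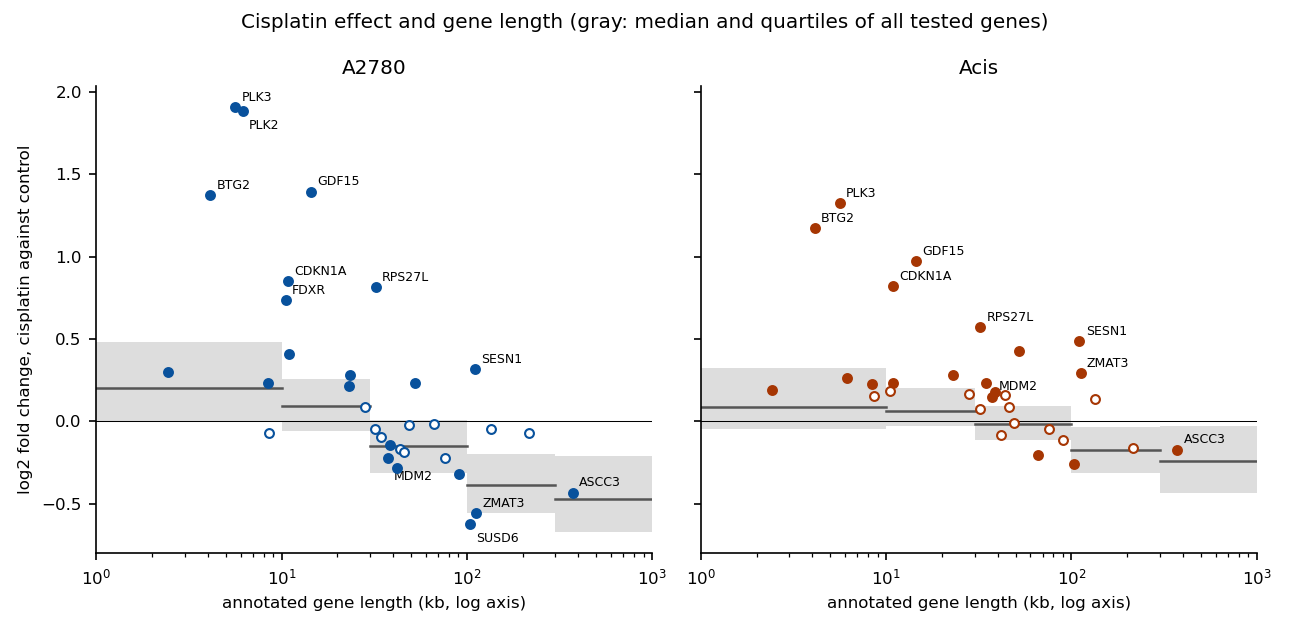
Log2 fold change of cisplatin against control for each member by annotated gene length (kb, log axis) in A2780 (left) and Acis (right), with filled points for adjusted p under 0.05, and gray bands for the quartiles and lines for the medians of all tested genes in each length class. The gray medians fall from 0.21 under 10 kb to -0.47 over 300 kb in A2780, and the short PLK2, PLK3, BTG2, CDKN1A and GDF15 lie above them.

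The chromatin at the starts of the members was accessible in nearly every condition. An ATAC-seq peak lay within 1 kb of the start of 32 of 32 members in A2780 control and in A2780 cisplatin, of 29 in Acis control and of 31 in Acis cisplatin. Among 12210 protein-coding genes that were tested, these shares were 82.2%, 84.2%, 75.3% and 80%. In Acis control the starts without a peak were those of CDKN1A, DRAM1 and TP53INP1, and in Acis cisplatin that of TP53INP1. The start of CDKN1A had a fold enrichment of 4.76 in A2780 control, 5.47 in A2780 cisplatin and 4.52 in Acis cisplatin, the lowest of the members in A2780 control. CDKN1A thus had fewer listed peaks in Acis, beside its lower RNA in all 6 Acis libraries, and whether these are linked was not tested.

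Median fold enrichment at the member starts was 14.9 in untreated and 11.2 in treated A2780, and 14.8 in untreated and 16.2 in treated Acis, where they cover the 29 and 31 members with a peak. Over all genes with a peak at the start the medians were 14.8, 11.6, 17.15 and 15.9. In A2780, 27 of the 32 starts had a lower and 5 a higher value in the cisplatin list than in the control list, with a median ratio of 0.859, while the RNA of 14 members rose. The median over all genes was lower in the A2780 cisplatin list as well (11.6 against 14.8), so this fall is not particular to the members. The share of all starts with a lower value was not counted. PLK3, PLK2, GDF15 and BTG2, which rose most, were all among those with a lower value. In Acis, 18 of the 29 starts with a peak in both lists had a lower and 11 a higher value with cisplatin, with a median ratio of 0.962. These lists have no replicate values, come from 3 control and 2 cisplatin replicates, and hold 34979, 32159, 24485 and 27321 peaks in the order given, so a peak that is not listed may be weak and differences between lists have no test. Within the 32 genes and up to 5 kb upstream of them, the lists held 53, 55, 40 and 47 peaks.

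**Figure D5:**
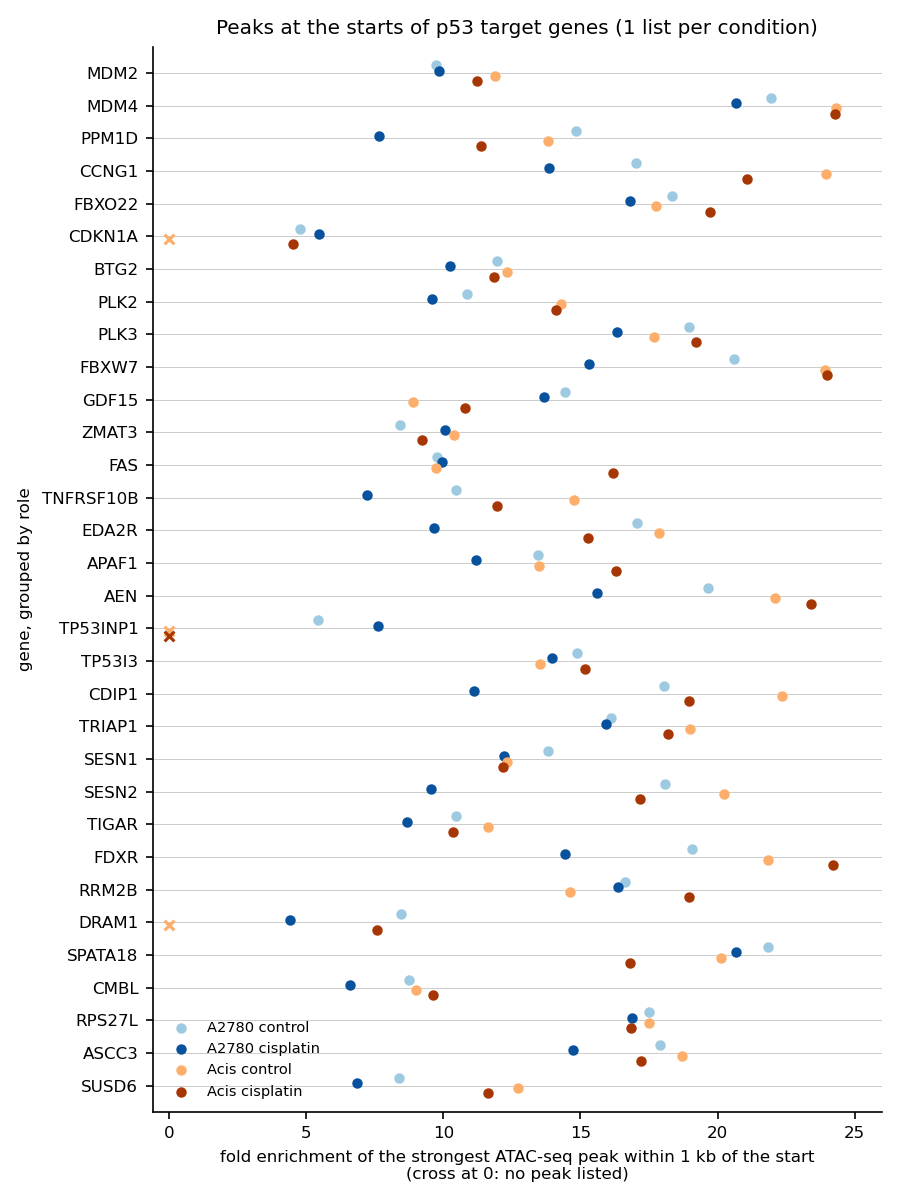
Fold enrichment over local background of the strongest ATAC-seq peak within 1 kb of each member's start, in the 4 peak lists (colors), with a cross at 0 where none is listed. CDKN1A, DRAM1 and TP53INP1 are the members with a cross, and most A2780 cisplatin points lie to the left of the A2780 control points.

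A further list of 61 p53 targets outside the 33 was counted for comparison, and 57 of its genes were tested. It was drawn from general knowledge with earlier results of these data known. In A2780, 28 rose and 9 fell, and in Acis 21 rose and 3 fell (edgeR, adjusted p under 0.05), with medians of 0.19 and 0.20, against 21.2% and 28.2% of all genes in A2780 and 9.35% and 12.4% in Acis. In A2780 the most strongly supported rises were ATF3, a stress transcription factor (2.21 ± 0.07, from a mean of 126 to 583 normalized counts), IER5 (1.18 ± 0.06) and SERTAD1 (1.07 ± 0.06). The most strongly supported falls were REV3L, the catalytic subunit of a translesion polymerase (-0.80 ± 0.05), HSPA4L, a chaperone (-0.55 ± 0.05), and PANK1, a kinase of coenzyme A synthesis (-0.68 ± 0.07). In Acis the rises were PMAIP1, the BH3-only protein NOXA (0.96 ± 0.12), TNFRSF10D, a decoy receptor for TRAIL (0.58 ± 0.07), and IER5 (0.42 ± 0.06). The falls in Acis were REV3L (-0.32 ± 0.04), KITLG, the ligand of the receptor KIT (-0.17 ± 0.04), and MICALL1 (-0.24 ± 0.07). Between the untreated lines, 18 of the 57 were higher and 24 lower in Acis, with a median of -0.21, against 28.2% and 30.6% of all genes.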

How the data were processed

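RNA-seq libraries of 12 samples were analyzed. The read counts per gene were deposited raw by the authors, who aligned stranded, ribosomal RNA-depleted single-end reads to hg38 with STAR 2.7.3, removed PCR duplicates with Picard and counted with HTSeq 0.11.1. The fold enrichment of each ATAC-seq peak, and its −log10 q, are values that the authors computed with MACS2 after cutadapt 1.15 and Bowtie2 2.4.1, and they kept peaks that overlapped between all replicates of a condition. XR-seq was not analysed here. Every row of the table has at least 10 counts in total, and removal of duplicates can lower high counts.

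Counts were fitted in R 4.3.3 with edgeR 4.0.16 (TMM factors of 0.965 to 1.05, default filter on low counts, 4 groups of 3, 8 residual degrees of freedom, common dispersion of 0.000304, quasi-likelihood test, Benjamini-Hochberg adjustment over 15760 genes). Calls used an adjusted p under 0.05, and beside it the same with a log2 fold change past 1 in either direction. The study names DESeq2, and DESeq2 1.42.0 was an alternative. Normalized counts are counts brought to the mean effective library size by TMM. Totals of 4130644 to 5072216 counts limit the precision of genes with few counts. Methods were run on simulated counts with a larger dispersion than the one fitted here, so they were not tested at the spread of these data. Positions came from GENCODE 44, and peaks and sequences were handled in Python 3.11.15 and drawn with matplotlib 3.10.9. Promoter sequences are from RefSeq (GRCh38).

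Members and lists were chosen with earlier results of these data known. Values in every library are given for MDM2, MDM4, CDKN1A and PPM1D and for the 6 members with the smallest adjusted p in each cisplatin comparison, the untreated line comparison and the interaction. Of the other p53 targets, the 3 rises and 3 falls with the smallest adjusted p are named, if their higher group had a mean of 30 or more normalized counts. The labels state no pairing by replicate number. Libraries of different groups with the same number had correlations of -0.176 to 0.245. These were not set beside pairs with unlike numbers, so they cannot decide on pairing. Pairs of replicates differed by 0.732 to 1.53 times the counting noise, and all 3 libraries per group were kept.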

Additional observations from a re-analysis of the deposited data

Results flagged for a closer look

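The cisplatin effect differed between Acis and A2780, by the interaction test in edgeR, for 10 members. As the effect in Acis minus that in A2780 on the log2 scale, the differences were -1.62 for PLK2, -0.58 for PLK3 and -0.55 for FDXR, where the rise was larger in A2780. They were 0.85 for ZMAT3, 0.37 for MDM2 and 0.32 for FBXO22, which fell in A2780 and rose in Acis. They were 0.26 for ASCC3 and 0.36 for SUSD6, which fell in both lines and less in Acis, 0.20 for MDM4, which fell in A2780, and 0.33 for RRM2B, which rose in Acis. The interaction calls of MDM4, RRM2B and SUSD6 were lost under some alternatives. Those of MDM2 and FBXO22 held, but the rise of MDM2 in Acis was lost under some alternatives. So were the fall of FBXO22 in A2780 and its rise in Acis. Groups of 3 are too small for a check of single outlying samples.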

How the results depend on the processing

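The numbers of members higher and lower kept within 1.5 times their main value under every alternative for both cisplatin comparisons and for the lines under cisplatin. For the interaction, members with a lower value numbered 8 in place of 3 with a filter on a mean of 50 counts and 8 with total counts, and members with a higher value numbered 4 in place of 7 with total counts and 4 with DESeq2. For untreated Acis against A2780, DESeq2 called 4 members higher in place of 7. Total-count scaling turned TNFRSF10B in A2780 from -0.02 to 0.095. These causes were not tested. Leaving out 1 library gave 13 to 14 higher and 7 to 8 lower in A2780, 13 to 17 and 3 to 4 in Acis, 5 to 9 and 14 to 16 between untreated lines, 10 to 12 and 15 to 17 between treated lines, and 5 to 8 and 3 to 4 for the interaction. Of the single calls, 16 of 21, 14 of 19, 18 of 22, 25 of 26 and 7 of 10 held under all alternatives in the same order. The ATAC-seq counts of members with a peak did not move with a window of 2.5 kb, and with a −log10 q of at least 20 were 31, 31, 29 and 30.

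With the replicate number as a block, members higher and lower were 14 and 7 in A2780, 17 and 3 in Acis, 8 and 15 between untreated lines, 11 and 16 between treated lines, and 8 and 4 for the interaction, and the numbers share no pairing that the labels state. Depth limits genes such as SPATA18, GDF15 and SESN1 in Acis, which had under 100 mean normalized counts in Acis control.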
